A study of Mus musculus with 2 samples.

Results

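The regions described here are macroH2A1 peaks of mouse embryonic stem cells that lie upstream of a named gene, more than 10 and at most 50 kb from its start. They were taken from the peak list deposited for the series, as the rows whose class was upstream, whose gene had a symbol and whose deposited shortest distance fell in that range. Of the 2560 peaks in the list, 383 met the rule (15.0%, 95% Wilson interval 13.6 to 16.4%), and they were assigned to 361 genes. They made up 43.4% (40.1 to 46.7%) of the 883 upstream peaks with a named gene. The nearer upstream peaks, up to 10 kb, numbered 247 at 246 genes, and the farther ones, beyond 50 kb, 253 at 220 genes. Together the 383 regions covered 630 kb.

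The peaks come from a chromatin immunoprecipitation and sequencing (ChIP-seq) experiment with 1 library made with a macroH2A1 antibody and 1 made with non-specific IgG. Both were from E14, an established mouse embryonic stem cell line grown on gelatine in serum and leukemia inhibitory factor, with no further treatment. How specific the antibody is was not tested here. With 1 library per antibody there is no replicate, so no difference below has a test. The intervals cover counting error only and say nothing about other cultures. The list gives no read count, enrichment or score per peak, so the depth behind a region is unknown and width is the only size it records.

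MacroH2A1 is a variant of histone H2A that carries a large globular macrodomain behind its histone part. It is known for its abundance on the inactive X chromosome and at silent developmental genes, and it is generally linked to repression and to the stability of differentiated cell states. Regions far upstream of a gene start are where many enhancers and silencers of developmental genes are found. The list holds no other mark, so whether the regions are regulatory was not tested. Each peak was assigned by the authors to the gene with the nearest start, which need not be the gene that it acts on.

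The sequences of the peaks themselves were not analysed here, since no genome of the build of the list was at hand. The windows printed are the 250 bases before the RefSeq start of 4 genes that had 2 of these regions each, and they show the gene ends from which such distances run. They are given 5′ to 3′ from RefSeq, build GRCm38.p6, with every CG dinucleotide, the site of DNA methylation, in capitals. They were picked after their composition was seen, to span a range. Hmga2 (chr10:120476470-120476719, minus strand) encodes an architectural chromatin protein of early development, Pax7 (chr4:139832969-139833218, minus strand) a paired-box regulator of muscle stem cells and neural crest, Scg3 (chr9:75684057-75684306, minus strand) a secretogranin of hormone granules, and Cds1 (chr5:101764880-101765129, plus strand) an enzyme of phospholipid synthesis.
Hmga2: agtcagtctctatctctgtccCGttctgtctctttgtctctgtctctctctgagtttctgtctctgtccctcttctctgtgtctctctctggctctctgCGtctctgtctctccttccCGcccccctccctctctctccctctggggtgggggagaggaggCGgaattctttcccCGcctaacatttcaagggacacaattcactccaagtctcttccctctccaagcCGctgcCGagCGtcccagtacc
Pax7: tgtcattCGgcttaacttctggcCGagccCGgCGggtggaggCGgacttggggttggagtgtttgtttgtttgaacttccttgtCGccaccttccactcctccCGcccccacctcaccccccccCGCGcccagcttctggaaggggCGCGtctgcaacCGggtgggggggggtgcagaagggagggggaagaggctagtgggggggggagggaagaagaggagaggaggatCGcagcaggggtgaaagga
Scg3: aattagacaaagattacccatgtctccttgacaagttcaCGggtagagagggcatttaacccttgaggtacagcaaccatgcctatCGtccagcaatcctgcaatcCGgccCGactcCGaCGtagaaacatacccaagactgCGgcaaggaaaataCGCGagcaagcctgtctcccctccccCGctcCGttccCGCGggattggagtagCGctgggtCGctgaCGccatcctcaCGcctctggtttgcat
Cds1: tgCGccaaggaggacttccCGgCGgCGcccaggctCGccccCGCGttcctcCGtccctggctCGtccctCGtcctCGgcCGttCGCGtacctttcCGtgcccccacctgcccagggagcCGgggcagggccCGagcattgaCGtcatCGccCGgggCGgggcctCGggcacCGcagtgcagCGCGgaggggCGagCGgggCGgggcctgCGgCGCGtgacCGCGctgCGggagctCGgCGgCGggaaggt
The window held 8 CG dinucleotides at Hmga2, 13 at Pax7, 17 at Scg3 and 37 at Cds1. The GC content was 56.4% at Hmga2, 65.2% at Pax7, 55.6% at Scg3 and 77.6% at Cds1. Over the 15 such genes with a window the count ran from 7 to 37. Whether the RefSeq start is the start used in the list was not tested. Windows covered 267 of the 361 genes (74.0%), under the 80% set as the least for a comparison of composition between bands, which is therefore not given.

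Within the band the regions thinned out with distance from the gene. Because each peak was assigned to the nearest gene start, counts per step also depend on the spacing of genes. How many peaks would fall in each step from that spacing alone was not tested. In steps of 5 kb there were 99 regions from 10 to 15 kb, 67 from 15 to 20 kb, 55 from 20 to 25 kb and 47 from 25 to 30 kb. Farther out there were 31 from 30 to 35 kb, 41 from 35 to 40 kb, 19 from 40 to 45 kb and 24 from 45 to 50 kb. The first 10 kb of the band held 43.3% (38.5 to 48.3%) of the regions and the last 10 kb 11.2% (8.44 to 14.8%). The median distance was 22.7 kb (interquartile range 14.9 to 33.2 kb). The limits fell in a continuous run: 85 named upstream peaks lay from 5 to 10 kb and 22 from 50 to 55 kb.

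The members just inside the lower limit were upstream of Fgg, the fibrinogen gamma chain, and Jam2, a junctional adhesion molecule, both at 10018 bp, and of Bsph1, a seminal plasma protein of sperm, at 10090 bp. Just outside it were peaks at Tubg2 (9884 bp), Akap1 (9850 bp) and Cd82 (9753 bp). At the upper limit the last members were at Blcap, a gene that is imprinted in brain, at 49953 bp, Fstl5 at 49920 bp and Cobl, an actin nucleator, at 49688 bp. The first peaks beyond it were at Arhgap24 (50210 bp), the Wnt receptor gene Fzd7 (50373 bp) and the vitamin D-degrading enzyme gene Cyp24a1 (50705 bp). Widths on either side of the limits overlapped, from 1101 to 1851 bp inside and from 1201 to 2051 bp outside.

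**Figure D1:**
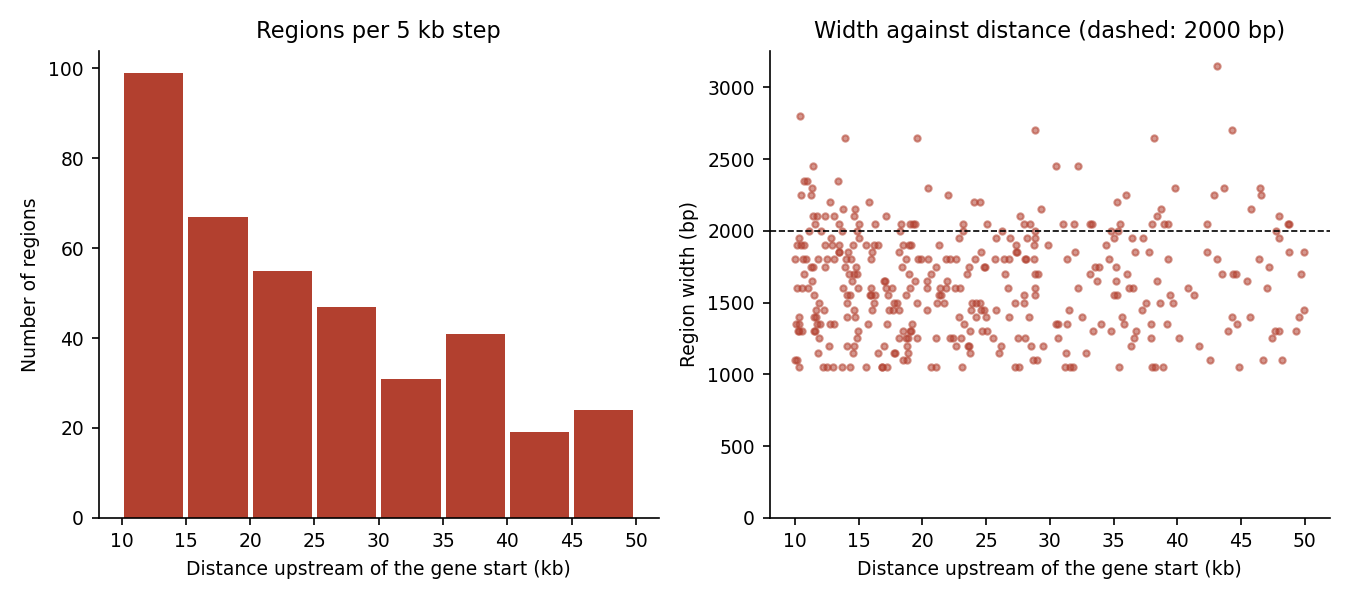
Number of regions in each 5 kb step of distance upstream of the gene start (left) and width in bp of each of the 383 regions against that distance (right, dashed line at 2000 bp). The count per step is 99 from 10 to 15 kb and 24 from 45 to 50 kb, while widths reach from 1101 bp or less to 2301 bp or more in every step.

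Most regions were between 1 and 2 kb wide, and wide ones made up a larger share than among the farther upstream peaks. Their median width was 1601 bp (95% order-statistic interval 1551 to 1701 bp, interquartile range 1351 to 1901 bp), against 1551 bp (1501 to 1601 bp) both for the nearer and for the farther upstream peaks and 1551 bp over all other peaks of the list. The step of the coordinates is 50 bp, so the medians differ by a single step and their intervals overlap. Above 2000 bp lay 77 of 383 regions (20.1%, 16.4 to 24.4%), against 37 of 247 nearer peaks (15.0%, 11.1 to 20.0%), 27 of 253 farther peaks (10.7%, 7.44 to 15.1%) and 311 of 2177 other peaks (14.3%, 12.9 to 15.8%). The interval of the regions overlapped that of the nearer peaks and did not overlap that of the farther ones or of all other peaks. With rows without a symbol included, the share was 18.7% (15.6 to 22.3%) in the band, 15.4% (11.9 to 19.7%) nearer and 11.5% (8.88 to 14.7%) farther. The interval of the band then overlapped that of the nearer peaks and the one given above for all other peaks, but not that of the farther ones. Among peaks numbered above the list median the share was 4.09% of the regions, 4.03% of nearer and 2.92% of farther peaks, and below it 33.0% of the regions, 26.0% of nearer and 19.8% of farther peaks, and in each case the intervals overlapped. With the band ended at 25 kb they overlapped too, with 17.6% (13.2 to 23.2%) of the regions and 15.7% (12.5 to 19.5%) of the farther peaks. The bound of 2000 bp was set after the widths were seen. At the other end, 23 regions (6.01%) had the smallest width of the list, 1051 bp, against 9 nearer (3.64%), 12 farther peaks (4.74%) and 5.74% of all other peaks.

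Wide regions occurred along the whole band. Across the 383 regions Spearman's rank correlation of distance and width was 0.01, a description over regions of 1 library. When the regions were ranked by distance and cut into 4 parts, the closest, up to 14.9 kb, had a median width of 1726 bp with 23 of 96 above 2000 bp. From 14.9 to 22.7 kb the median was 1576 bp with 12 of 96 above, and from 22.8 to 33.1 kb it was 1601 bp with 16 of 95. The farthest, from 33.2 kb, had 1701 bp with 26 of 96 above. The median was higher in the closest and farthest parts than in the 2 between.

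**Figure D2:**
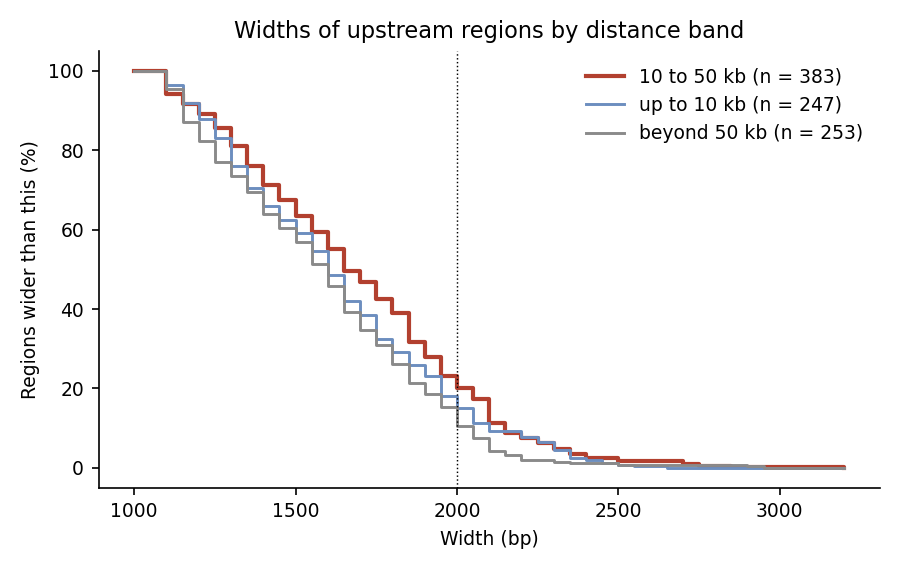
Share of regions (vertical axis, %) wider than a given width (horizontal axis, bp) for regions 10 to 50 kb upstream (383), up to 10 kb (247) and beyond 50 kb (253), with a dotted line at 2000 bp. At that line the 10 to 50 kb regions stand at 20.1%, the nearer at 15.0% and the farther at 10.7%.

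The widest region spanned 3151 bp on chromosome 17 (32035850 to 32039000, build mm9 here and for all positions of peaks), 43.1 kb upstream of Sik1, which encodes a salt-inducible kinase. The second, of 2801 bp on chromosome 3 (52059150 to 52061950), lay 10.4 kb upstream of Foxo1, a forkhead factor of insulin signalling. Regions of 2701 bp were found upstream of Sqle, the squalene epoxidase of cholesterol synthesis (28.8 kb, chromosome 15), and of Pid1 (44.3 kb, chromosome 1). Those of 2651 bp were upstream of Cyp2g1, a cytochrome P450 of olfactory mucosa (19.6 kb), of Gatsl2 (38.2 kb) and of Ppp1r15b, a phosphatase subunit of the stress response (14.0 kb). Slmap, a membrane-associated protein gene (11.4 kb), Tcf7l1, a repressor of the Wnt pathway in stem cells (30.5 kb), and Mc3r, a melanocortin receptor of energy balance (32.2 kb), followed with 2451 bp each. These 10 lay on 9 chromosomes and at distances from 10.4 to 44.3 kb. Among the narrowest, of 1051 bp, were those upstream of Ifngr1, an interferon gamma receptor subunit (13.7 kb), Gm5124 (20.7 kb) and 4930528F23Rik (12.6 kb).

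The number in each peak name, whose meaning is not stated, was lower in wider regions (Spearman's rank correlation -0.61 over the 383 regions). Its median was 1114 (955 to 1280) in the regions, against 1281 (1081 to 1408) in the nearer and 1421 (1187 to 1591) in the farther upstream peaks. The peak numbered 1 was the Mc3r region on chromosome 2 (172039350 to 172041800). Numbers up to 500 were held by 95 regions (24.8%, 20.7 to 29.4%), 50 nearer peaks (20.2%, 15.7 to 25.7%) and 49 farther peaks (19.4%, 15.0 to 24.7%), with overlapping intervals. Numbers up to 100 were held by 21 regions (5.48%, 3.61 to 8.24%), 12 nearer peaks (4.86%, 2.80 to 8.30%) and 3 farther peaks (1.19%, 0.40 to 3.43%), against 3.63% of all other peaks. There the interval of the regions did not overlap that of the farther peaks.

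Of the 361 genes, 340 had 1 region and 21 (5.82%, 3.84 to 8.73%) had 2 or more, which together held 43 of the 383. Beside them, 1 of 246 genes (0.41%) had more than 1 nearer peak and 27 of 220 (12.3%) more than 1 farther peak. The bands differ in length, so these shares are not on 1 scale. The gap between the closest regions of a gene ran from 0.50 to 28.4 kb, with a median of 9.20 kb. The median width was 1851 bp over the 43 regions and 1601 bp over the 340 regions of genes with 1, a description of these peaks.

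Eln, the gene of elastin, the elastic fibre protein, was alone in having 3. They lay 14.9, 33.3 and 36.4 kb upstream on chromosome 5, with widths of 1601, 2051 and 1951 bp, and spanned 135238050 to 135261500. The outer pair was separated by 1.10 kb. A further Eln peak of 1951 bp lay inside the gene (135200500 to 135202450).

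Of the genes with 2 regions, several are developmental regulators. Lhx5, a LIM-homeobox gene of the forebrain, had regions of 2051 bp each at 23.2 and 48.7 kb on chromosome 5. Pax7 had them at 14.1 kb (1401 bp) and 33.9 kb (1751 bp) on chromosome 4, besides a peak of 2051 bp inside the gene. Wnt7b, a Wnt ligand, had a narrow region of 1151 bp at 16.5 kb and one of 1851 bp at 37.8 kb on chromosome 15. Nrarp, an inhibitor of Notch signalling, had 1801 and 2051 bp at 22.2 and 33.2 kb. Hmga2 had 2001 and 1601 bp at 23.2 and 28.9 kb on chromosome 10, and Nrg1, a neuregulin ligand of ErbB receptors, 1451 and 1851 bp at 31.5 and 36.7 kb on chromosome 8. In Pax7, Wnt7b, Nrarp and Nrg1 the outer region was the wider, and in Hmga2 the inner one.

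The closest pairs were nearly joined. At 1810063B07Rik on chromosome 14 the regions of 2201 and 1801 bp were 0.50 kb apart, and at Scg3 on chromosome 9 those of 2051 and 1901 bp were 0.95 kb apart. At Rreb1, a zinc finger factor of the Ras pathway, regions of 1051 and 2101 bp were 2.15 kb apart, at 44.8 and 48.0 kb. The widest separation was at Trio, a guanine nucleotide exchange factor of small GTPases, with 1201 bp at 12.7 kb and 2051 bp at 42.3 kb. Cmas, which makes activated sialic acid, had 1951 bp at 10.3 kb and 2051 bp at 19.4 kb, and a nearer peak of 2601 bp at 4.68 kb. Prex1 (a Rac exchange factor), Btrc (an F-box ubiquitin ligase subunit), Cds1, Atrnl1, Phospho1 (a phosphatase of bone mineral), Klhl8, Arl15, 4930452B06Rik and Gm5420 made up the rest. The lowest widths among them were at Klhl8 (1051 bp) and Gm5420 (1201 bp), and the highest were at Cds1 (2201 bp) and Btrc (2151 bp).

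**Figure D3:**
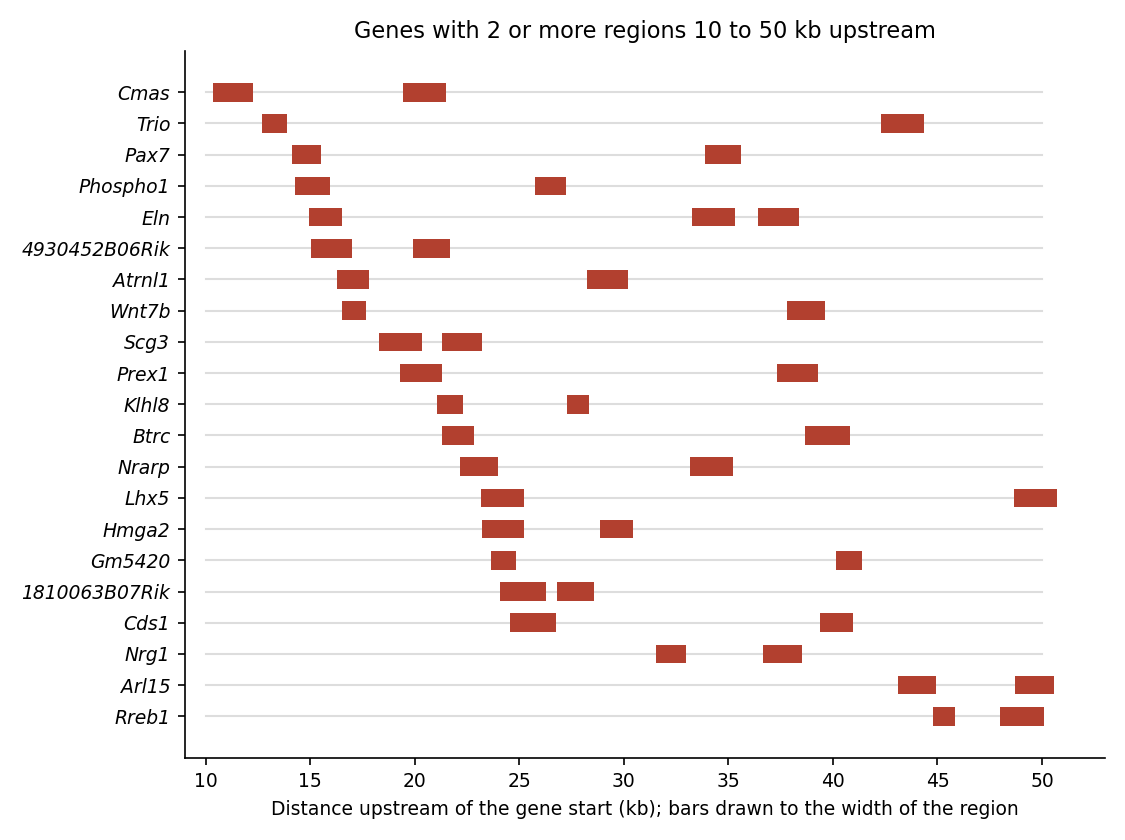
The 21 genes with 2 or more regions 10 to 50 kb upstream (rows), each region drawn as a bar from its nearest base outward along the distance from the gene start (horizontal axis, kb), to the width of the region. Eln has 3 bars, and the bars of 1810063B07Rik and of Scg3 lie within 1 kb of each other.

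A further look at the same genes showed that 58 of 361 (16.1%, 12.6 to 20.2%) also had a peak outside the band, against 10.6% (7.32 to 15.0%) of genes with a nearer and 20.9% (16.1 to 26.8%) of genes with a farther upstream peak. For 289 genes (80.1%), counted by gene entry of the list, the region was their single peak. A nearer upstream peak was present at 10 of the 361, a farther one at 20, a peak inside the gene at 12 and a downstream peak at 21. The genes with a nearer peak were Amd1, Cmas, Kcnk10, Mgst2, Rassf3, She, Strap, Syt7, Tcf7l1 and Zmat4. Among genes with 4 or more peaks in all, Sez6l, a neuronal membrane protein gene, had its region 18.9 kb upstream (1151 bp), 4 farther ones from 54.2 to 86.9 kb and 1 inside the gene. Ajap1, a junction protein gene, and Uncx, which patterns the vertebral column through its homeodomain, each had 1 region in the band beside 3 downstream peaks, and Ajap1 had 2 farther ones as well.

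The regions were grouped by gene lists drawn up with earlier results of these data known, and in each list the intervals of the 3 bands overlapped. Of the 361 genes, 40 (11.1%, 8.24 to 14.7%) belonged to at least 1 of 7 lists, against 28 of 246 (11.4%, 7.99 to 16.0%) with a nearer and 34 of 220 (15.5%, 11.3 to 20.8%) with a farther peak. Each list holds only part of its kind of gene, so the counts, shares and widths below are those of list members. The shares are set against all 1409 named genes with a peak of any class. No list was tested, and in each of the 7 lists the interval of the band held the share over all named genes.

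The list of developmental transcription factors lacks some, such as Fezf2 and Helt, which also had a region in the band. Its members made up 13 of 361 genes (3.60%, 2.12 to 6.06%), against 8 nearer genes (3.25%), 11 farther genes (5.00%) and 3.83% of all named genes. Their 15 regions had a median width of 1901 bp, and 6 were above 2000 bp. The 8 nearer peaks of such genes had a median of 1876 bp with 3 above 2000 bp, and the 11 farther ones 1501 bp with 1 above. Over all 73 peaks of such genes, of any class, the median was 1701 bp and 17 were above 2000 bp. Among the 15 regions, Lmx1a, a LIM-homeobox factor of dopaminergic neurons, had the widest (2151 bp, 29.3 kb, chromosome 1). It was followed by Sp8, a zinc finger factor of limb outgrowth (2101 bp, 11.5 kb), and by Zeb2, a regulator of neural crest and epithelial-mesenchymal transition (2051 bp, 39.0 kb). Both Lhx5 regions and that of Sox13 (25.1 kb), an SRY-box factor, also measured 2051 bp. Neurog1, a proneural factor, and Uncx had 1901 bp at 12.4 and 16.2 kb. The mesoderm factors Meox1 (13.1 kb) and Twist2 (46.4 kb) had 1801 bp each, and T, the brachyury gene of primitive streak, 1751 bp at 14.8 kb (chromosome 17, 8610750 to 8612500). The narrow end was formed by Sox11, a factor of neural progenitors (1151 bp, 17.8 kb), and Tbx15, a T-box factor of skeleton and skin (1051 bp, 15.6 kb). The 15 regions had a median distance of 17.8 kb.

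Developmental signalling genes of the list, which lacks Nrarp, made up 6 of 361 (1.66%, 0.76 to 3.58%), against 2.03% of nearer, 1.82% of farther and 1.92% of all named genes. None of their 8 regions was above 2000 bp. Beside the ligands Wnt7b and Nrg1, they were Sfrp1, a secreted Wnt antagonist (1601 bp, 10.1 kb), Ptch1, the Hedgehog receptor (1251 bp, 28.1 kb), Bambi, a decoy receptor of the BMP and TGF-beta pathway (1201 bp, 36.4 kb), and Pdgfra, a receptor of mesenchymal cells (1101 bp, 29.0 kb).

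Pluripotency genes made up 4 of 361 (1.11%, 0.43 to 2.81%), against 1.22% of nearer, 1.82% of farther and 0.85% of all named genes. Tcf7l1 had the wide region named above (chromosome 6, 72769450 to 72771900) and a nearer peak of 1551 bp at 3.15 kb. Stat3, which carries the signal of leukemia inhibitory factor, had 1601 bp at 11.0 kb (chromosome 11, 100811750 to 100813350), under an entry with 2 symbols. Nr5a2, an orphan nuclear receptor, had 1601 bp at 40.8 kb, and Tcfcp2l1, a factor of the naive state, 1051 bp at 31.2 kb. Both lie on chromosome 1.

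The neuronal list, which lacks genes such as Gabrr1 and Syt7, held 8 of 361 genes (2.22%, 1.13 to 4.31%). Its share was 2.03% of nearer, 5.00% of farther and 2.98% of all named genes. The widest regions were those of Ntn1, the guidance ligand netrin (2351 bp, 10.7 kb), and Robo3, a receptor of crossing axons (2301 bp, 20.5 kb). At receptors of transmitters and peptides the widths were 1701 bp for the metabotropic glutamate receptor Grm3 (44.6 kb), 1351 bp for the GABA receptor subunit Gabrb2 (31.3 kb) and 1351 bp for the somatostatin receptor Sstr2 (12.7 kb). Fstl5 (1451 bp), Pclo, a scaffold of the presynaptic zone (1251 bp, 38.0 kb), and Sez6l (1151 bp) completed the list.

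Chromatin regulators made up 4 of 361 (1.11%, 0.43 to 2.81%), against 0.81% of nearer, 1.36% of farther and 0.64% of all named genes. They included Brd3, a bromodomain reader of acetylated histones (2101 bp, 17.2 kb), the acetyltransferase gene Kat5 (1651 bp, 11.4 kb) and Arid2, a subunit of a SWI/SNF remodeller (1251 bp, 30.7 kb). Matrix genes were also 4 (1.11%), against 2.03% of nearer, 1.36% of farther and 1.21% of all named genes. Beside Eln, they were Fbln1, an elastic fibre protein (1551 bp, 15.9 kb), Lama2, a laminin chain of muscle (1351 bp, 39.2 kb), and Col3a1, a fibrillar collagen (1151 bp, 31.3 kb). Blcap was the single gene of the imprinted list (1851 bp), against 2 nearer genes, 0 of 220 farther genes and 0.43% of all named genes. The count of 0 allows a share of up to 1.36% (3 counts of the total, against a Wilson upper bound of 1.72%).

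**Figure D4:**
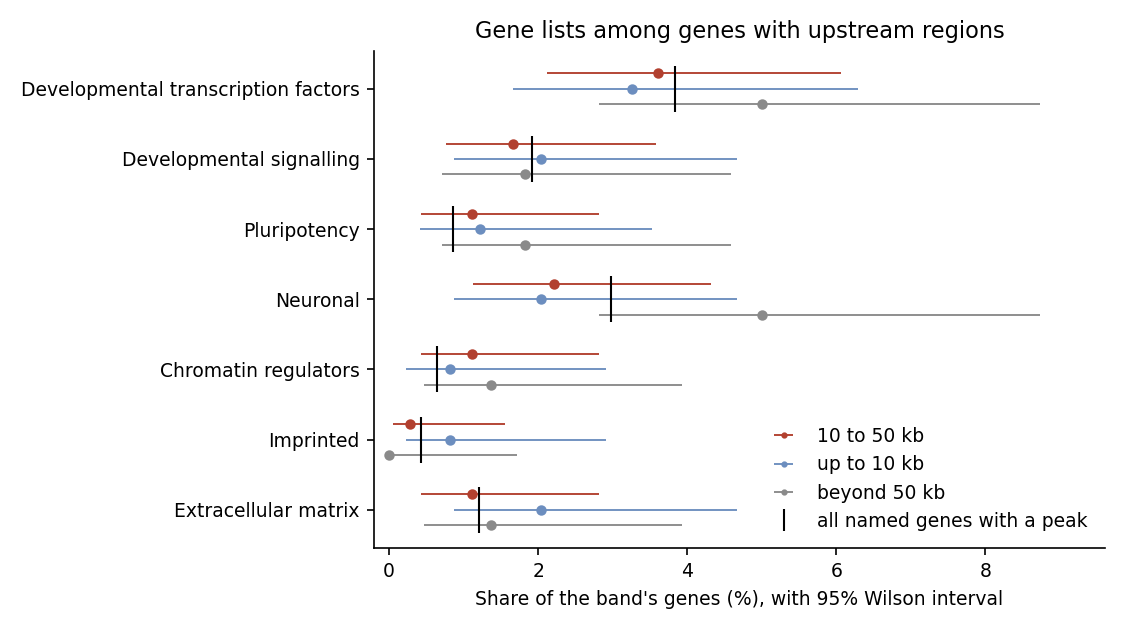
Share of genes (horizontal axis, %) that belong to each of 7 gene lists (rows) among genes with a region 10 to 50 kb upstream (361), up to 10 kb (246) and beyond 50 kb (220); points are shares, lines 95% Wilson intervals and vertical ticks the share over all 1409 named genes with a peak. In each list the intervals of the 3 bands overlap.

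Apart from genes listed under RIKEN, Gm or similar names, families recognised by their symbols were each at most 8 of the 361 genes. Symbols catch only part of each kind of gene, so the family counts and shares below are those of matching symbols. Solute carriers were 7 (1.94%), against 2.03% of nearer, 1.82% of farther and 2.20% of all named genes, with widths from 1351 to 1801 bp, among them Slc35a3, Slc37a2, a sugar phosphate exchanger (1751 bp, 35.2 kb), Slc28a3, a nucleoside transporter (1751 bp, 13.9 kb), and Slc9a8, a sodium-proton exchanger (1601 bp, 23.0 kb). Ion channels recognised by symbol, which misses Gabrb2, were 3 (0.83%), against 2.85% of nearer, 1.36% of farther and 1.92% of all named genes. They were the potassium channel genes Kcnc2 (2251 bp, 46.5 kb) and Kcnk10 (1251 bp, 19.6 kb) and the sodium channel gene Scn8a (1601 bp, 20.4 kb). G protein-coupled receptors recognised by symbol, which misses Cnr1, were 7 (1.94%), against 2.85% of nearer, 2.27% of farther and 1.85% of all named genes. They included Mc3r, the adhesion receptor Gpr124 of brain vessels (2351 bp, 11.0 kb), Grm3, Bai1 (1501 bp, 37.6 kb), Sstr2 and the adrenergic receptor Adra1b (1301 bp, 47.7 kb).

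Sensory receptors were few, with Olfr15 (1651 bp, 21.9 kb) and Olfr1349 (1401 bp, 10.3 kb) among olfactory receptors (0.55%), against 1.63% of nearer, 0.45% of farther and 1.35% of all named genes. Vmn2r89 (2051 bp, 15.0 kb) was the single vomeronasal receptor (0.28%), against 0 of 246 nearer genes, 0.45% of farther and 0.14% of all named genes. These are large families of similar copies, and how reads that match several copies were treated is not stated. Cadherins and protocadherins, adhesion molecules of epithelia and neurons, were at 0 of 361 genes, a count that allows a share of up to 0.83% (3 counts of the total, against a Wilson upper bound of 1.05%). They made up 2 of 246 nearer genes (0.81%), 5 of 220 farther genes (2.27%) and 0.92% of all named genes. Keratins and integrins were at 0 of 361 as well, and made up 0.14% (keratins) and 0 of 1409 (integrins) of all named genes. Of the semaphorins, plexins, ephrins and their receptors, Epha2 alone was present (0.28% of genes, 1201 bp, 26.2 kb), against 1.22% of nearer, 1.36% of farther and 0.92% of all named genes.

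Small GTPases and their regulators recognised by symbol, which misses Trio and Prex1, were 7 genes (1.94%), against 1.22% of nearer, 3.64% of farther and 1.70% of all named genes. Their 8 regions ran from Rab44 (2151 bp, 13.8 kb) to Rassf3 (1051 bp, 31.6 kb), with Arl15, Dock5, Arhgef18, Arhgap26 and Rab2a between. Kinases recognised by prefix were 6 (1.66%), against 2.44% of nearer, 0.91% of farther and 1.42% of all named genes. Among these 6 the widest was at Map4k4 (2001 bp, 13.7 kb), and Stk32a, Yes1, Stk25 and Sgk3 followed with 1551 to 1901 bp. The prefixes missed other kinase genes, such as Mylk (1701 bp) and Sik1, whose region of 3151 bp was the widest of the band. Pim1, a kinase gene induced by cytokines, had 1301 bp at 18.5 kb. Phosphatase genes recognised by prefix, which misses Phospho1, were 5 (1.39%), against 0.41% of nearer, 1.82% of farther and 1.21% of all named genes. Ppp1r15b was the widest, and the others were Dusp23, Ppp1r3b, Ptpn1, a phosphatase of the insulin receptor (1401 bp, 26.8 kb), and Ppp2cb, a catalytic subunit (1051 bp, 38.0 kb).

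Genes of ubiquitin ligases, conjugating enzymes and peptidases recognised by prefix, which misses Btrc, were 8 (2.22%), against 2.44% of nearer, 1.36% of farther and 2.13% of all named genes. Their 9 regions were led by those of Fbxl17 (1951 bp, 28.8 kb) and the conjugating enzyme gene Ube2d1 (1801 bp, 25.7 kb). The entry for Ube2f lay on chromosome 12 at a gene of 1.41 kb, and RefSeq has no gene of that name there, so the identity of this gene is uncertain. Zinc finger genes recognised by prefix, which misses Sp8 and Rreb1, were 4 (1.11%), against 2.03% of nearer, 1.82% of farther and 1.56% of all named genes. The regions of Zfp217 (2101 bp, 27.7 kb) and Zfp423, a factor of neuronal and fat cell precursors (2001 bp, 18.2 kb), were above 2000 bp. Cytochrome P450 genes were Cyp2g1 and Cyp4f16 (2301 bp, 39.8 kb), 0.55% of the 361, against 1.22% of nearer, 0.45% of farther and 0.43% of all named genes. Tight junction and related genes were 3 (0.83%, 0.28 to 2.41%), against 0 of 246 nearer and 0 of 220 farther genes and 0.43% of all named genes, with Wilson upper bounds of 1.54% for nearer and 1.72% for farther genes. They were the claudin genes Cldn16 (1551 bp, 35.3 kb) and Cldn4 (1451 bp, 12.3 kb) and Jam2 (1101 bp). Motor protein and actin genes were 4 (1.11%), against 0.81% of nearer, 0.91% of farther and 1.56% of all named genes, led by Kif3a, a kinesin subunit of cilia (1851 bp, 13.4 kb), and including Myh9, a non-muscle myosin heavy chain (1301 bp, 10.6 kb). Cytokine and cytokine receptor genes were 3 (0.83%), against 0.41% of nearer, 0.91% of farther and 0.99% of all named genes. They were the death ligand gene Tnfsf10 (1801 bp, 39.2 kb), Il28ra (1401 bp, 25 kb) and Ifngr1. Protease genes recognised by prefix, which misses Cts7 (1151 bp) and Lnpep (1801 bp), were Adam23, Mep1b and Ctsc, with widths from 1501 to 1701 bp. These 3 made up 0.83% of the 361, against 0.41% of nearer, 1.36% of farther and 1.14% of all named genes. ATPase and ABC transporter genes were Atp10a, Abca5 and Abcc3, with widths from 1651 to 1801 bp, and made up 0.83% of the 361, against 0.41% of nearer, 1.36% of farther and 0.71% of all named genes. Tmem genes were 4 (1.11%), against 1.63% of nearer, 1.82% of farther and 1.49% of all named genes, from Tmem132c (2351 bp, 13.4 kb) to Tmem26 (1501 bp, 19.6 kb). Homeobox genes recognised by prefix, which misses Meox1 and Dmbx1, were Lmx1a, Lhx5, Uncx and Pax7, named above. These made up 1.11% of the 361, against 1.63% of nearer, 0.91% of farther and 1.92% of all named genes. Genes listed under RIKEN, Gm or similar names, some of which have other symbols in RefSeq, were 41 of 361 (11.4%, 8.48 to 15.1%), against 8.54% of nearer, 7.27% of farther and 10.8% of all named genes.

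Nearly all the genes were protein-coding, but the rule kept only genes with a symbol. Of the 523 upstream peaks from 10 to 50 kb, 140 (26.8%, 23.2 to 30.7%) had a gene without one and were left out. No protein-coding share was computed for the other bands. RefSeq, assembly GRCm38.p6, had 355 of the 361 under the same chromosome (98.3%), and 340 (94.2%) were protein-coding there. The genes had a median length of 32.9 kb in the list (95% interval 26.5 to 40.7 kb), against 19 kb (15.2 to 25.8 kb) for genes with a nearer and 64.3 kb (43.0 to 79.9 kb) for genes with a farther upstream peak. These 3 intervals do not overlap. Over all 2132 genes of the list, with or without a symbol, the median was 10.3 kb (8.96 to 12.0 kb). With rows without a symbol included, the median of the 10 to 50 kb band was 15.4 kb. Genes longer than 100 kb were 24.7% (20.5 to 29.4%) of the 361, against 15.0% of nearer genes and 35.5% of farther genes. Over all genes of the list, with or without a symbol, they were 16.3%. This share was not computed over named genes alone, so it is not on the scale of the bands. The plus strand held 201 of the 361 genes (55.7%, 50.5 to 60.7%), against 52.8% of nearer and 54.1% of farther genes.

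The regions were found on all 20 chromosomes analysed, 1 to 19 and X. Chromosome 5 held most, 36 (9.40%, 6.87 to 12.7%), against 14 nearer peaks (5.67%), 34 farther peaks (13.4%) and 9.77% of all peaks. Chromosome 2 followed with 32 and chromosome 1 with 29. The share over all peaks lay inside the interval of the regions on 19 of the 20 chromosomes. It lay just below the interval on chromosome 14, with 20 regions (5.22%, 3.41 to 7.93%), against 4 nearer peaks (1.62%), 7 farther peaks (2.77%) and 3.36% of all peaks. With rows without a symbol included the share there was 4.40% (2.95 to 6.51%), and with rows of exactly 1 symbol 4.83% (3.04 to 7.60%), and both intervals held the share over all peaks. The widest region there was that of Slmap, and it also held the pairs of 1810063B07Rik and 4930452B06Rik. Chromosome 11 had 19 regions (4.96%), against 18 nearer peaks (7.29%), 3 farther peaks (1.19%) and 5.51% of all peaks. Chromosome 17 had 12 regions (3.13%), against 18 nearer peaks (7.29%), 6 farther peaks (2.37%) and 3.36% of all peaks. On chromosome X there were 5 regions (1.31%), none above 2000 bp, against 4 nearer peaks, 0 of 253 farther peaks and 1.02% of all peaks. The count of 0 allows a share of up to 1.19% (3 counts of the total, against a Wilson upper bound of 1.5%). Chromosome 17 had 5 of its 12 regions above 2000 bp and the highest median width of any chromosome, 1876 bp.

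**Figure D5:**
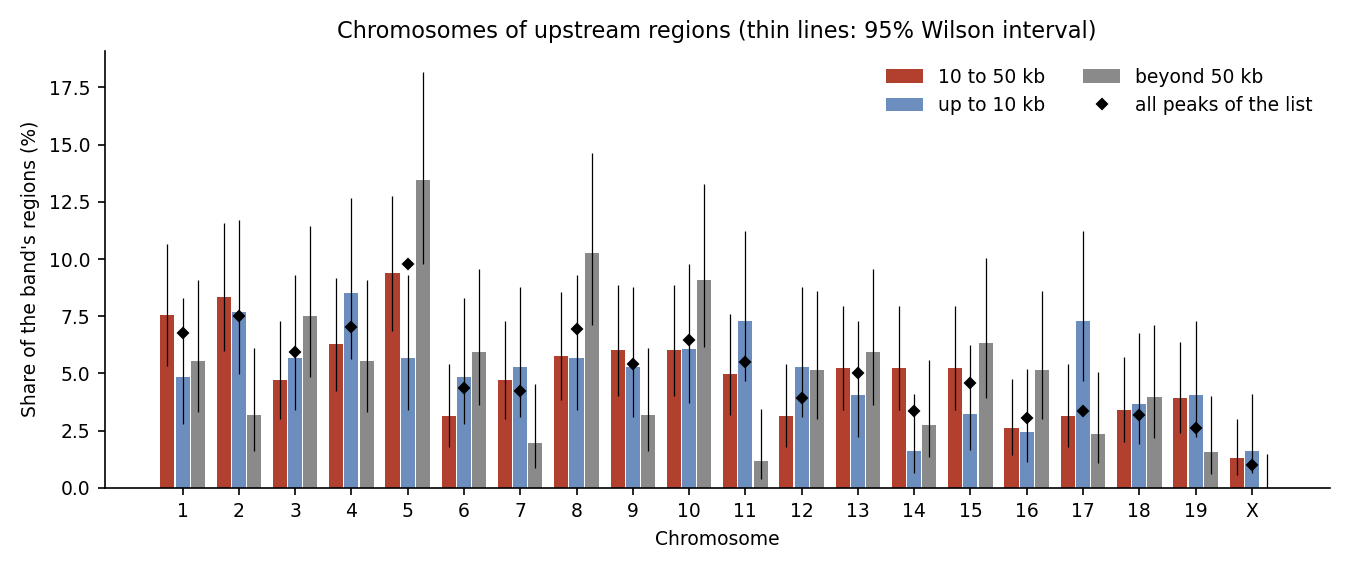
Share of regions (vertical axis, %) on each chromosome (horizontal axis) for regions 10 to 50 kb upstream (383), up to 10 kb (247) and beyond 50 kb (253); thin lines are 95% Wilson intervals and diamonds the share of all 2560 peaks. The diamond lies outside the interval of the 10 to 50 kb regions on chromosome 14 alone.

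Some regions lay close to others. Another peak of the list lay within 50 kb of 90 of the 383 (23.5%, 19.5 to 28.0%), against 15.8% (11.8 to 20.9%) of nearer peaks, 20.2% (15.7 to 25.5%) of farther peaks and 20.5% (18.8 to 22.2%) of all other peaks. The intervals overlapped. Within 10 kb the counts were 29 regions (7.57%), 11 nearer (4.45%) and 10 farther peaks (3.95%), against 6.52% (5.56 to 7.64%) of all other peaks. For 64 of the 90 the closest peak belonged to the same gene entry of the list, and for 8 to a gene without a symbol. The closest peak to the Dnahc10 region, 39.2 kb away, lay inside another entry of that symbol and is not among the 64. The median gap to the closest other peak was 212 kb (176 to 254 kb), against 278 kb (190 to 385 kb) for nearer and 263 kb (186 to 376 kb) for farther peaks.

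In 5 cases a pair of regions with different genes were each other's closest peak within 50 kb. In all 5 the genes point away from each other, with both regions in the stretch between their starts. The choice of pairs favours this arrangement, since each region had to be upstream of a different nearest start. Ctps, which makes the nucleotide CTP, and Cited4, a transcriptional co-regulator, had regions 8.50 kb apart on chromosome 4, at 42.3 and 42.5 kb from their starts. Those of Stk25, a kinase gene, and Bok, a BCL2-family gene of cell death, were 12.0 kb apart on chromosome 1, at 10.9 and 23.9 kb. Those of Lrch1 and 5031414D18Rik were 19 kb apart on chromosome 14. Pnrc1 and Rngtt, the mRNA capping enzyme gene, had regions 31.5 kb apart on chromosome 4, and Wwc2 and Dctd 41.1 kb apart on chromosome 8. Such pairs are split between genes only by which start is closer.

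The region of Ddx47, an RNA helicase gene (1701 bp, 36.0 kb, chromosome 6), lay 2.25 kb from a peak of a gene without a symbol. The region of Rab44 lay 30.5 kb from the peak upstream of Cdkn1a, the cell cycle inhibitor p21. The outer Lhx5 region lay 22.9 kb from a peak of a gene without a symbol. Of the 383 regions, 2 overlapped the body of another gene in the list: the Inpp4a region (1051 bp, 38.8 kb) lay in Cnga3, a channel gene of cone photoreceptors, and the Ptplb region (1751 bp, 47.2 kb) in Mylk, a myosin light chain kinase gene. Genes that have no peak in the list could not be checked this way.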

How the data were processed

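The peak list of the macroH2A1 immunoprecipitation was used as the authors deposited it. The build is NCBIM37 (mm9) and Bowtie is the aligner named, per the submitters' processing notes. In the list, peak names begin with CCAT and the columns follow ChIPpeakAnno, with assignment to the nearest gene start, per the file headers. Caller settings, control and read filters were not given in the sources used. Deposited values are other quantities, positions, widths and distances in bp; the deposited list has no counts. No values of the IgG library were analysed here.

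Widths and upstream distances were recomputed from the coordinates and matched in all 2560 and all 1316 rows. Where a row had several symbols, the first that RefSeq (GRCm38.p6) has on that chromosome was used. Among the members, 31 rows had more than 1. Shares carry 95% Wilson intervals and medians 95% order-statistic intervals (Python 3.11.15, pandas 2.3.3, scipy 1.17.1). The functions were tested on simulated data. Members and gene lists (7 explicit, 24 by symbol) were chosen with earlier results of these data known. Genes were named by rule: all with 2 or more regions, the 10 widest and 3 narrowest regions, 3 on each side of both limits, explicit-list members, up to 6 per family, close pairs and the widest region of an outlying chromosome. Others, such as genes of divergent pairs, Cdkn1a and those with several peaks, were named after their values were seen. Some list members are not reported here. There were 10 alternatives per result.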

Additional observations from a re-analysis of the deposited data

How the results depend on the processing

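The 10 alternatives gave 139 values over 14 results, and 107 stayed within 1.5 times (counts) or inside the 95% interval (shares and medians) of the reported value. Recomputed distances and counting each distinct region once left every value identical, since distances matched and no region of the band is listed more than once, so they test nothing. None moved with rows of exactly 1 symbol. Many of the 32 that moved follow from the alternative's own construction. The number of regions was 221 in a band of 10 to 25 kb, 162 from 25 to 50 kb, 211 among rows wider than the list median, and 212 and 171 below and above the median peak number. Median distance was 16.1 kb from 10 to 25 kb and 35.2 kb from 25 to 50 kb. Genes with 2 or more regions numbered 3 and 4 in these bands, 10 among wider rows, and 11 and 2 below and above the median number. The median width was 1901 bp among wider rows, and 1801 and 1401 bp below and above the median number. Above 2000 bp lay 36.5% of the regions, 30.8% of nearer and 23.3% of farther peaks among wider rows. Below the median number they were 33.0% of the regions, 26.0% of nearer and 19.8% of farther peaks, and above it 4.09%, 4.03% and 2.92% in the same order of bands. With the band ending at 25 kb, 17.6% of the regions, 15.0% of nearer and 15.7% of farther peaks were above 2000 bp, and the intervals overlapped. They also overlapped below the median number (27 to 39.6% of the regions, 19.1 to 34.4% of nearer and 13.6 to 28.0% of farther peaks), and above it the shares were nearly equal; the cause was not tested. Median peak number was 620 among wider rows, and 585.5 and 1921 below and above the list median. Another peak lay within 50 kb of 19.3% of the regions above the median number. A peak outside the band was found at 27.2% of genes from 25 to 50 kb, where regions from 10 to 25 kb count as outside. Median gene length was 15.4 kb with rows without a symbol included and 43.1 kb from 25 to 50 kb. Leaving out chromosome 5 gave no value for the share on that chromosome. No paired analysis was possible because there is 1 library per antibody and no result comes from a test. The depth is unknown, so what it limits could not be assessed.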
